A study of Mus musculus with 18 samples.

Results

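MPP1 cells were compared with haematopoietic stem cells (HSC) of control mouse bone marrow, gene by gene. The comparison took the 2 libraries labelled MPP1 control and the 3 labelled HSC control, 5 of the 18 libraries of the series, by their labels alone. All libraries came from lineage-negative marrow progenitors of the BALB/c strain. Controls carried the genotype label wt. The mutants carried the label dnmt1-/-, and the series text describes a designed change in the maintenance DNA methyltransferase Dnmt1 with reduced function. HSC mutant (3 libraries) and MPP1 mutant (2 libraries) served as separate samples for the same comparison. MPP4 control and MPP4 mutant (4 libraries each) entered the same model, for the spread and, through shared ID numbers, for the fitted differences. Sorted cells went straight into a lysis buffer with no separate RNA extraction, and CEL-Seq2, which counts transcript molecules near their 3' ends, was used for the libraries. The sources used here do not give the sort markers, the age and sex of the mice, the number of cells in a library or any pooling of mice. ID numbers in the column names join HSC control 2 to MPP1 control 1 (pair 1) and HSC control 3 to MPP1 control 2 (pair 2). HSC control 1 shares its number with no MPP1 library but with MPP4 control 1, through which it enters the fitted difference. A fitted log2 difference can thus depart from the ratio of the group means given beside it. Nothing states that a number is a mouse, and the p-values rest on a spread between libraries that may be technical in part.

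HSC sit at the top of blood formation, and most of them rest outside the cell cycle for long periods. MPP1 is a name used for the earliest multipotent progenitors, which stand next to HSC, keep many of their surface proteins and divide more often. MPP4 is a name used for later, lymphoid-primed progenitors that carry the receptor Flt3. Division needs a sequence of gene groups: regulators of entry such as cyclins and E2F factors, enzymes for nucleotides and DNA replication in S phase, and spindle and chromosome proteins in G2 and mitosis. Myeloid priming means low expression of granule proteins and immune receptors of the granulocyte and monocyte lineages in cells that are not yet committed.

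Depth was 354642 to 1202624 counts in the 5 control libraries and 354642 to 1943562 over all 18. Values are given as CPM, counts scaled to a common depth with TMM factors, and each library's value is given in the order HSC control 1, 2, 3, then MPP1 control 1, 2. HSC control 1 was sequenced in batch A and the other 4 in batch C. The mitochondrial rRNA mt-Rnr2 stood at the highest value the tables hold, 36909 counts, in 2 of the 5 libraries. Counts between libraries of a group differed well beyond sampling noise, with chi-square per degree of freedom of 3.69 to 12.2, so none was counted as a repeat of another.

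The markers below set HSC and MPP1 apart from MPP4, while Slamf1 and Flt3 did not tell HSC from MPP1. Slamf1, a surface receptor of HSC and their nearest progeny, stood at 26.6, 90.3 and 54.5 CPM in HSC and 52.7 and 61.7 CPM in MPP1, against 0 to 12.3 CPM in the 4 MPP4 control libraries. Flt3, the receptor that marks lymphoid-primed progenitors, stood at 39.9, 29.5 and 21.8 CPM in HSC and 45.1 and 37.4 CPM in MPP1, against 408 to 515 CPM in MPP4. HSC and MPP1 overlapped in both genes. Dntt, the DNA polymerase of lymphoid precursors, had at most 6.66 CPM in the 5 libraries and at least 499 CPM in every MPP4 control library.

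2 of the 5 libraries held transcripts of other blood cells. MPP1 control 2 had a summed erythroid list level of 34247 CPM, against 2653 to 3428 CPM in the other 4, with 10611 CPM of the adult haemoglobin gene Hba-a1. Its neutrophil list sum was 9230 CPM, against 238, 193, 229 and 922 CPM in HSC control 1, 2, 3 and MPP1 control 1, and 0 of the 19 neutrophil genes were without a count in it, against 6 to 13 in the other 4. HSC control 1 had a B cell list sum of 35799 CPM, against 67 to 133 CPM in the others, nearly all of it from the immunoglobulin genes Igkc (20682 CPM) and Ighm (14814 CPM). Its plasma cell list sum was 3674 CPM against 90 to 177 CPM. Values without these libraries are given beside the groups that moved with them.

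**Figure D1:**
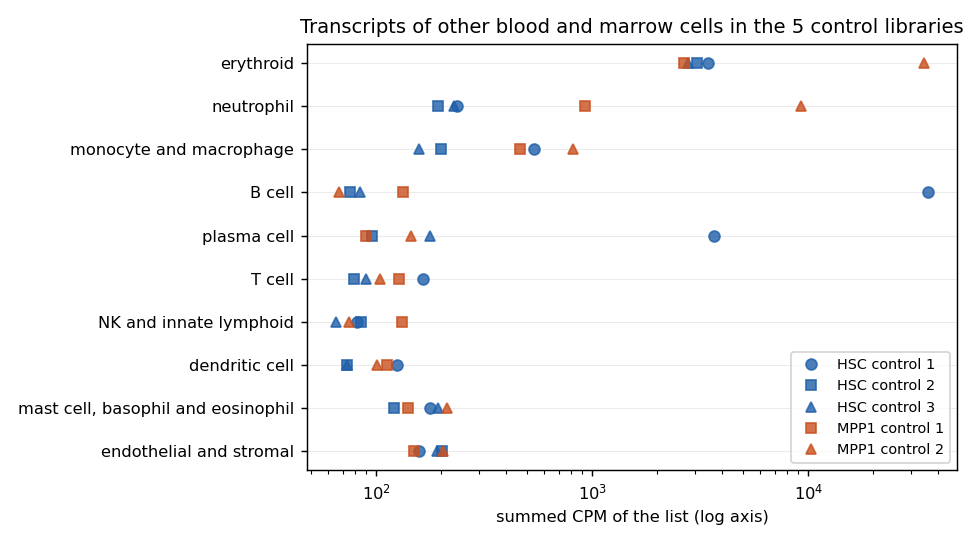
Summed CPM (log axis) of 10 lists of genes of other blood and marrow cells, 1 point per control library, blue for HSC and orange for MPP1. MPP1 control 2 stands apart at 34247 CPM for erythroid and 9230 CPM for neutrophil genes, and HSC control 1 at 35799 CPM for B cell genes.

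25 of 10613 genes tested differed between MPP1 and HSC in control marrow, 0.236% of all genes, by edgeR's quasi-likelihood test with the ID number as a block and a Benjamini-Hochberg adjusted p under 0.05. 22 were higher in MPP1 (0.207% of all genes) and 3 were lower (0.0283%). The 22 held 4 members of the myeloid progenitor list (Prtn3, Ms4a3, Tyrobp, Serpinb1a), 4 of G2 and mitosis (Cdk1, Nusap1, Ube2c, Ckap2), 1 of S phase (Tk1), 1 of cell cycle entry (E2f2), 1 of lymphoid priming (Cd53) and 2 of the neutrophil list (Mmp9, Ly6g). The other 9 were in no list, and the order in which they are described was chosen after their values were seen. The 3 lower genes were Atp1b2, Trib2 and Snora73b. In CPM, the 2 groups did not overlap for 20 of the 25, against 9.82% of all genes higher in MPP1 and 8.47% lower. 22 of the 25 had the same sign within pair 1 and within pair 2. The 25 were picked by a test on these same libraries, so both counts describe the calls and are not separate evidence for them. The calls depended on the block: 0 genes passed without it and 3 with the sequencing batch in its place, while at an unadjusted p under 0.05 the main model gave 384 genes higher (3.62%) and 183 lower (1.72%). DESeq2 with the same block called 7 genes. No gene of the 25 passed in all 5 fits that each left out 1 control library.

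**Figure D2:**
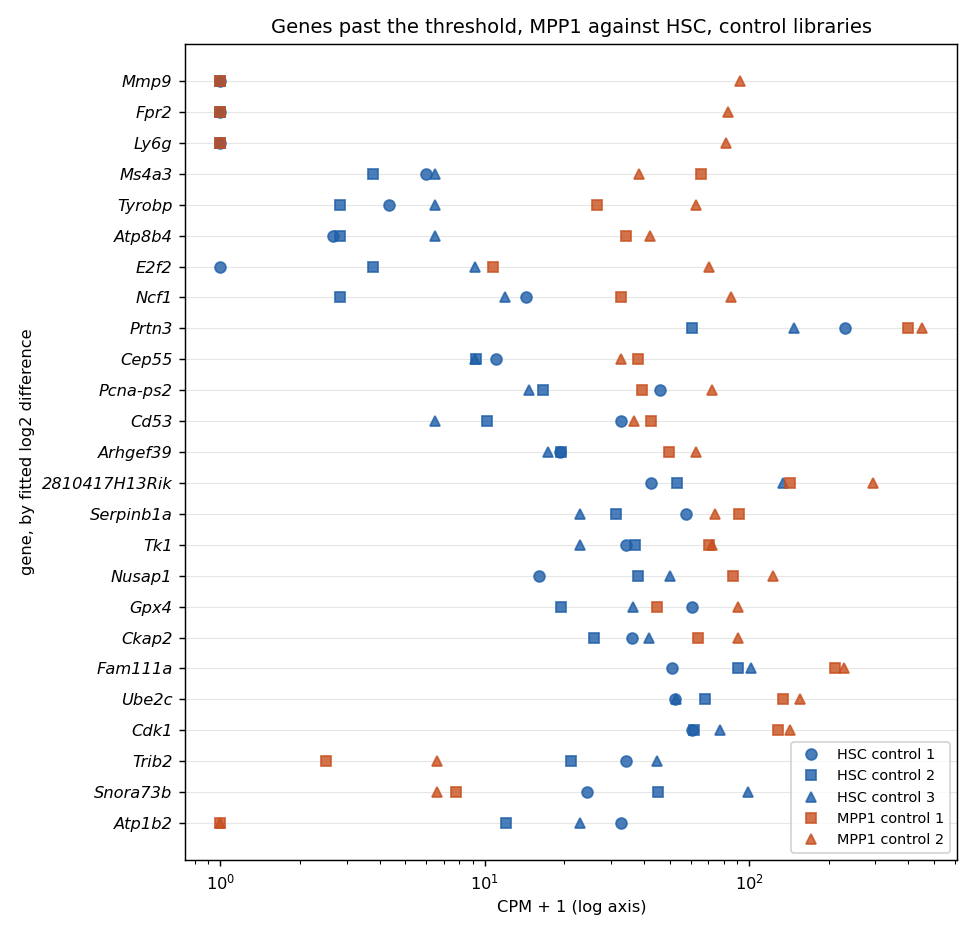
CPM + 1 (log axis) of the 25 genes past the threshold in each of the 5 control libraries, ordered by fitted log2 difference; blue for HSC, orange for MPP1, and squares and triangles for pair 1 and pair 2. The 2 groups do not overlap for 20 genes, and Mmp9, Fpr2 and Ly6g have counts in MPP1 control 2 only.

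The myeloid progenitor list held 4 of the calls. In sorted bulk samples such as these, more cells of a type and more RNA per cell cannot be told apart. Prtn3 encodes proteinase 3, a serine protease of neutrophil granules made early in myeloid development. It stood at 230, 59.9 and 147 CPM in HSC and at 396 and 450 CPM in MPP1, and the groups did not overlap. Its means were 146 ± 84.9 (SD, n = 3) and 423 ± 38.6 CPM (SD, n = 2), a fitted log2 difference of 2.20 ± 0.29 (SE) with an edgeR adjusted p of 0.00188. Prtn3 passed in 4 of the 5 leave-one-out fits and had an adjusted p of 0.098 by edgeR without MPP1 control 1. Without MPP1 control 2, the library with neutrophil transcripts, its log2 difference was 2.44. In the MPP4 control libraries, which were compared with the same HSC libraries, Prtn3 stood at 86.9 to 249 CPM.

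Ms4a3, a membrane protein of granulocyte and monocyte progenitors, stood at 4.99, 2.76 and 5.45 CPM in HSC and at 64.7 and 37.4 CPM in MPP1. These are 8 counts in 3 libraries against 106 in 2. The fitted log2 difference was 4.25 ± 0.68 (SE), with an edgeR adjusted p of 0.00188, and Ms4a3 kept an adjusted p of 0.002 without MPP1 control 2 but had 0.659 without MPP1 control 1. 3 of the 4 MPP4 control libraries had no count of Ms4a3, and the fourth had 2.48 CPM. The promoters of these genes are shown because both were called and are textbook products of granulocyte progenitors.

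The sequences run from 250 bases before to 50 bases after the RefSeq transcript start on GRCm38.p6, Prtn3 at chr10:79879417-79879716 on the plus strand and Ms4a3 at chr19:11640802-11641101 on the minus strand. Capitals mark matches, on either strand, to GAGGAAGT, a form of the site of the myeloid factor PU.1, or to TTGCNNAA, a form of the C/EBP site. Prtn3 holds 1 PU.1 match, 95 bases before the start. Ms4a3 holds 1 C/EBP match, 41 bases after it. Of all 32851 promoters of the same length in the table, 3.20% hold the first motif and 10.8% the second. A match is a description of the letters and not evidence of binding. Tyrobp and Serpinb1a are not shown.
Prtn3: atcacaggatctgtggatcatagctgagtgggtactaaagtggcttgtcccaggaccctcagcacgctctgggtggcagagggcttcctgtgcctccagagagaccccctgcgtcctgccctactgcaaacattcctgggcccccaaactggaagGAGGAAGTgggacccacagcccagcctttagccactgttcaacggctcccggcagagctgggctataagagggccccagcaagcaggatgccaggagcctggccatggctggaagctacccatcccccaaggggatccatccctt
Ms4a3: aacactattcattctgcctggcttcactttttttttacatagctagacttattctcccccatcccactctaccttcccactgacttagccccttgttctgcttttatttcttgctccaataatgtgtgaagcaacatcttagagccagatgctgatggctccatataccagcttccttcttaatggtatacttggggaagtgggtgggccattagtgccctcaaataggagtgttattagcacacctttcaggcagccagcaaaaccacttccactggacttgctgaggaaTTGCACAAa

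Tyrobp, the signalling adaptor DAP12 of myeloid and natural killer receptors, stood at 3.33, 1.84 and 5.45 CPM in HSC and at 25.6 and 61.7 CPM in MPP1. Its fitted log2 difference was 3.70 ± 0.62 (SE), with an edgeR adjusted p of 0.00567, and it was 3.21 with an adjusted p of 0.038 without MPP1 control 2. Serpinb1a, an inhibitor of neutrophil proteases, stood at 56.6, 30.4 and 21.8 CPM in HSC and 90.3 and 72.9 CPM in MPP1. Its log2 difference of 1.41 ± 0.28 (SE) had an edgeR adjusted p of 0.0119, and 0.151 without MPP1 control 2. Ncf1, a subunit of the NADPH oxidase of phagocytes, stood at 13.3, 1.84 and 10.9 CPM in HSC and 31.6 and 84.1 CPM in MPP1. Its log2 difference of 2.81 ± 0.47 (SE) had an edgeR adjusted p of 0.00567, and 0.062 without MPP1 control 2. For all of these the lower MPP1 library stood above the highest HSC library.

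Cd53, a tetraspanin of most leukocytes, stood at 31.6, 9.21 and 5.45 CPM in HSC and at 41.4 and 35.5 CPM in MPP1. Its log2 difference was 1.62 ± 0.37 (SE), with an edgeR adjusted p of 0.0429. Of the fits that each left out 1 control library, Cd53 passed only in that without HSC control 1. It did not pass with DESeq2 or the stricter filter. Atp8b4, a phospholipid-transporting ATPase, stood at 1.66, 1.84 and 5.45 CPM in HSC and at 33.1 and 41.1 CPM in MPP1, which are 5 counts against 66. Its log2 difference was 3.58 ± 0.58 (SE), with an edgeR adjusted p of 0.00188, and 0.004 without MPP1 control 2. Both genes were more abundant in each MPP1 library than in any HSC library. Atp8b4 stood at 32.9 to 69.4 CPM in the MPP4 control libraries.

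34 of the 40 tested members of the myeloid progenitor list had a higher fitted level in MPP1, with a median log2 difference of 1.99, against 5339 of 10613 genes and a median of 0.00 over all genes. 4 of the 40 passed the test (Prtn3, Ms4a3, Tyrobp, Serpinb1a), The share of all genes that passed with a higher level was 0.207%. 20 of the 40 had an unadjusted p under 0.05 with a higher level (3.62% of all genes) and 0 with a lower one (1.72%). 21 did not overlap upwards (9.82% of all genes) and 2 downwards (8.47%). Without MPP1 control 2 the median was 1.96, and without MPP1 control 1 it was 1.33. 29 of the 40 were higher in MPP1 within both pairs, against 2871 of 10613 genes.

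Several further members lay just outside the threshold; F13a1, Anxa3, Ly86 and Igsf6 are named after their values were seen. F13a1, the A chain of coagulation factor XIII and a gene of the monocyte lineage, had 1 count in the 3 HSC libraries together and 21.1 and 26.2 CPM in MPP1. That is a ratio of 46.3, with a 95% exact interval of 7.86 to 1870 for counting error, and an edgeR adjusted p of 0.0526. Igsf6, a myeloid receptor of the immunoglobulin family, had 2 counts in HSC and 20.3 and 20.6 CPM in MPP1, a ratio of 20.9 (5.41 to 179) with an edgeR adjusted p of 0.105. Ly86, the MD-1 partner of the receptor RP105, had 2 counts in HSC and 20.3 and 11.2 CPM in MPP1, a ratio of 18.2 (4.65 to 156). Anxa3, an annexin of neutrophil granules, stood at 1.66, 0 and 10.9 CPM in HSC and 16.6 and 29.9 CPM in MPP1, with an edgeR adjusted p of 0.093. Each of these 4 was higher in both MPP1 libraries than in every HSC library.

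The classical granule genes varied strongly between HSC libraries. Mpo, myeloperoxidase, stood at 84.9, 5.53 and 177 CPM in HSC and at 886 and 665 CPM in MPP1. Elane, neutrophil elastase, stood at 46.6, 0 and 87.3 CPM in HSC and at 699 and 125 CPM in MPP1. Ctsg, cathepsin G, stood at 9.98, 0 and 32.7 CPM in HSC and at 230 and 56.1 CPM in MPP1. The groups did not overlap in any of the 3 genes, yet with this spread their edgeR adjusted p-values were 0.984, 0.988 and 0.873. Irf8, a transcription factor of the monocyte and dendritic lineages, stood at 20, 6.45 and 8.18 CPM in HSC and at 39.1 and 41.1 CPM in MPP1, a log2 difference of 1.81 ± 0.47 (SE) with an edgeR adjusted p of 0.167. Ms4a6c, a macrophage gene, stood at 20, 9.21 and 10.9 CPM in HSC and at 32.4 and 41.1 CPM in MPP1, with an edgeR adjusted p of 0.117.

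Mmp9, Ly6g and Fpr2 passed the test on 1 library. Mmp9 is a gelatinase of neutrophil granules, Ly6g the surface protein that defines mouse neutrophils, and Fpr2 a formyl peptide receptor. MPP1 control 2 held 49, 43 and 44 counts of them, 91.6, 80.4 and 82.2 CPM, and the other 4 control libraries held 0. Against the limit of 3 counts over the 3 HSC libraries the MPP1 group was at least 17.99, 15.8 and 16.2-fold higher, and each had an edgeR adjusted p of 1 without MPP1 control 2. All 18 tested members of the neutrophil list had a higher fitted level in MPP1, with a median log2 difference of 5.83, or 4.33 with the 5 genes that had no count in HSC set at that limit. The median within pair 1 was 0.06 and within pair 2 it was 5.27. The fitted list median was 0.42 without HSC control 3. It was 3.84 without MPP1 control 2, although pair 1, with its median of 0.06, is then the only pair left. 9 of the 19 neutrophil genes had no count in MPP1 control 1 and 12 had none in HSC control 2. The 3.84 thus rests in part on genes with few or no counts and does not show that an excess remains. S100a8 and S100a9, the calprotectin subunits, stood at 1979 and 2906 CPM in MPP1 control 2 and at no more than 6.02 CPM in the other 4. The part of these transcripts in the other myeloid differences was not tested beyond the values without MPP1 control 2.

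The lists of G2 and mitosis, S phase and cell cycle entry held 6 of the calls. In G2 and mitosis, 79 of 82 tested genes were higher in MPP1 with a median log2 difference of 0.67, and in S phase 65 of 66 with a median of 0.53. 4 of the first list (Cdk1, Nusap1, Ube2c, Ckap2) and 1 of the second (Tk1) passed the test, against 0.207% of all genes. 39 and 26 had an unadjusted p under 0.05 in that direction (3.62% of all genes), with 0 in the other (1.72%). 54 and 34 did not overlap between the groups, against 9.82% of all genes. 73 of 82 and 46 of 66 were higher within both pairs, against 2871 of 10613 genes. Without HSC control 1 and MPP1 control 2 together, an alternative chosen after the data were seen, 75 of 82 and 59 of 66 were higher, with medians of 0.71 and 0.37 and 0 calls in either list. Without the block the medians were 0.85 and 0.57, also with 0 calls. Within pair 1, whose MPP1 library had an erythroid sum of 2653 CPM and a neutrophil sum of 922 CPM, the medians were 0.59 and 0.49. Within pair 2, whose MPP1 library had 34247 and 9230 CPM, they were 0.71 and 0.35.

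Cdk1, the cyclin-dependent kinase of mitotic entry, lies at chr10:69335146-69352938 on the minus strand of GRCm38. It stood at 59.9, 60.8 and 76.3 CPM in HSC and at 127.2 and 142 CPM in MPP1. Means were 65.7 ± 9.25 (SD, n = 3) and 135 ± 10.5 CPM (SD, n = 2), a log2 difference of 1.07 ± 0.23 (SE) with an edgeR adjusted p of 0.0284. Every HSC library lay below both MPP1 libraries. Nusap1, a microtubule-binding spindle protein, stood at 15, 36.8 and 49.1 CPM in HSC and at 85.8 and 121 CPM in MPP1, a log2 difference of 1.34 ± 0.29 (SE). Ube2c, the ubiquitin-conjugating enzyme of the anaphase-promoting complex, stood at 51.6, 67.2 and 51.8 CPM in HSC and at 133 and 155 CPM in MPP1, a log2 difference of 1.07 ± 0.24 (SE). Ckap2, a spindle-associated protein, stood at 34.9, 24.9 and 40.9 CPM in HSC and at 63.2 and 89.7 CPM in MPP1, a log2 difference of 1.32 ± 0.30 (SE). Their edgeR adjusted p-values were 0.0291, 0.0414 and 0.0444. No pair of groups overlapped among these 4 genes. Of the 5 fits that each left out 1 control library, Cdk1, Nusap1 and Ckap2 passed in 0 and Ube2c in 1.

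The promoters of Cdk1, Ube2c and Ckap2 are shown because these genes of G2 and mitosis passed the test together and hold letters described for promoters of that phase. They lie at chr10:69352863-69353162 (minus strand), chr2:164769679-164769978 (plus strand) and chr8:22185770-22186069 (minus strand) on GRCm38.p6, from RefSeq. Capitals mark matches, on either strand, to TTTGAA, a form of the cell cycle genes homology region (CHR) that the DREAM complex reads, or to CCAAT, the letters of the box bound by NF-Y. A match is a description of the letters and not evidence of binding. TTTGAA lies 71 and 15 bases before the start in Cdk1, 29 before in Ube2c and 101 before in Ckap2. CCAAT occurs 3 times in Cdk1, 6 times in Ube2c, with 2 of the 6 overlapping, and 1 time in Ckap2. Of 32851 promoters, 17.9% hold TTTGAA and 37.4% hold CCAAT. The promoters of Nusap1 and Tk1 hold neither set of letters in this window, and none of the 5 holds the E2F forms TTCCCGCC, TTTGGCGC or TTTCCCGC, which 3.21% of promoters hold.
Cdk1: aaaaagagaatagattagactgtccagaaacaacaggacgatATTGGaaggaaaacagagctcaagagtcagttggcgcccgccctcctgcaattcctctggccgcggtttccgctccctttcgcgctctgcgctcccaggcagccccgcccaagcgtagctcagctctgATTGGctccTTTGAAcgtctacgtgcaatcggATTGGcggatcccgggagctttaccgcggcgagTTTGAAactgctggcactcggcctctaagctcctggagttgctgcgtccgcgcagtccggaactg
Ube2c: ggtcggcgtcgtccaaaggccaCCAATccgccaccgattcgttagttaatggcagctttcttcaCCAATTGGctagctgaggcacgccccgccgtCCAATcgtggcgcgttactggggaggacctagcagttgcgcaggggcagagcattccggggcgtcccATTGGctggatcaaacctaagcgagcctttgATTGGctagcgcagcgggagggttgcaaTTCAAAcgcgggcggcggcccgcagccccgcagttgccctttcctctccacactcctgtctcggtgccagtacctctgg
Ckap2: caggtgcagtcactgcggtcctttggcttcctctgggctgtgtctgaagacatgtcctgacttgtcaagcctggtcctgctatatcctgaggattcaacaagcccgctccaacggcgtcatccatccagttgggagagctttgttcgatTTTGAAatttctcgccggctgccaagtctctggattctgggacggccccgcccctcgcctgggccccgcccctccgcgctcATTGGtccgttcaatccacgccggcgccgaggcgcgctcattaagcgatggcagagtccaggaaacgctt

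Other genes of division past the threshold included Cep55, an abscission protein of the midbody, at 9.98, 8.29 and 8.18 CPM in HSC and 36.9 and 31.8 CPM in MPP1. The log2 difference of Cep55 was 2.04 ± 0.44 (SE), with an edgeR adjusted p of 0.0284. Arhgef39, a guanine nucleotide exchange factor, stood at 18.3, 18.4 and 16.4 CPM in HSC and 48.9 and 61.7 CPM in MPP1, a log2 difference of 1.56 ± 0.34 (SE). The HSC libraries were close together in both genes and lay below both MPP1 libraries. 2810417H13Rik, which the annotation names Pclaf and which encodes a PCNA-binding factor, stood at 41.6, 52.5 and 134 CPM in HSC and 141 and 293 CPM in MPP1. Its log2 difference was 1.46 ± 0.24 (SE), with an edgeR adjusted p of 0.00193, and 0.029 without MPP1 control 2. HSC control 3 lay just below MPP1 control 1 here. Fam111a, a protease that works with PCNA at replication forks, stood at 49.9, 89.4 and 101 CPM in HSC and 209 and 228 CPM in MPP1. Its log2 difference was 1.22 ± 0.23 (SE), with an edgeR adjusted p of 0.00643, and 0.025 without MPP1 control 2.

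Tk1, the thymidine kinase of S phase, stood at 33.3, 35.9 and 21.8 CPM in HSC and at 69.2 and 71.0 CPM in MPP1. Tk1 had a log2 difference of 1.37 ± 0.31 (SE), with an edgeR adjusted p of 0.0429. It did not pass in any of the fits that each left out 1 control library, nor with DESeq2 or upper quartile scaling. Tyms, thymidylate synthase, stood at 21.6, 23.9 and 27.3 CPM in HSC and 50.4 and 59.8 CPM in MPP1. Usp1, a deubiquitinase of DNA repair, stood at 76.5, 87.5 and 62.7 CPM in HSC and 147 and 129 CPM in MPP1. Top2a, topoisomerase II alpha, stood at 160, 227 and 406 CPM in HSC and 475 and 639 CPM in MPP1. Tyms, Usp1 and Top2a each had an edgeR adjusted p of 0.107 without overlap between the groups. Mki67, the proliferation antigen Ki-67, stood at 83.2, 156 and 155 CPM in HSC and 215 and 379 CPM in MPP1, a log2 difference of 0.85 ± 0.24 (SE) with an edgeR adjusted p of 0.156. Mcm2, a subunit of the replicative helicase, overlapped, at 93.2, 132 and 204 CPM in HSC and 180 and 166 CPM in MPP1, a log2 difference of 0.16 ± 0.25 (SE).

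Pcna-ps2 is annotated as a processed pseudogene of Pcna, the replication clamp, so its reads may be shared with the parent gene. It stood at 44.9, 15.7 and 13.6 CPM in HSC and 38.4 and 71.0 CPM in MPP1, with HSC control 1 inside the MPP1 range, and had an edgeR adjusted p of 0.0284. Pcna itself stood at 116, 169 and 166 CPM in HSC and 210 and 232 CPM in MPP1, a log2 difference of 0.67 ± 0.32 (SE) with an adjusted p of 0.935. Gpx4, the glutathione peroxidase that protects membrane lipids, also overlapped, at 59.9, 18.4 and 35.4 CPM in HSC and 43.6 and 89.7 CPM in MPP1. Its log2 difference of 1.32 ± 0.28 (SE) passed with an edgeR adjusted p of 0.0284. In both genes the batch A library was the highest of the HSC libraries.

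Of 38 tested regulators of cell cycle entry, 24 were higher and 14 lower in MPP1, with a median log2 difference of 0.21 that was -0.04 without MPP1 control 1. E2f2, an activating E2F factor, was the 1 member that passed. It stood at 0, 2.76 and 8.18 CPM in HSC and at 9.78 and 69.1 CPM in MPP1, a log2 difference of 3.09 ± 0.60 (SE) with an edgeR adjusted p of 0.0105. MPP1 control 1 lay just above HSC control 3, and without MPP1 control 2 the adjusted p was 0.310. E2f1 stood at 20, 43.3 and 35.4 CPM in HSC and 55.7 and 78.5 CPM in MPP1, and Ccne2, cyclin E2, at 8.32, 9.21 and 16.4 against 24.1 and 43.0 CPM. Their edgeR adjusted p-values were 0.642 and 0.200. Cdkn1b, the inhibitor p27, stood at 56.6, 59.9 and 46.4 CPM in HSC and 94.8 and 78.5 CPM in MPP1, also without overlap, with an adjusted p of 0.649 by edgeR. Ccnd2, cyclin D2, was among the members with a lower fitted level, at 869, 1339 and 1565 CPM in HSC and 1153 and 824 CPM in MPP1, a log2 difference of -0.55 ± 0.23 (SE). Cdk6, the kinase partner of D cyclins, overlapped, at 304, 345 and 278 CPM in HSC and 461 and 316 CPM in MPP1. Myc, a growth regulator, stood at 118, 164 and 177 CPM in HSC and 220 and 241 CPM in MPP1, with an edgeR adjusted p of 0.938.

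Nucleotide synthesis genes shared 1 call, Tk1, with S phase. 25 of 34 tested members were higher in MPP1, with a median log2 difference of 0.37. 9 had an unadjusted p under 0.05 in that direction (3.62% of all genes) and 1 in the other (1.72%). Impdh1, an enzyme of guanine nucleotide synthesis, stood at 88.2, 47.9 and 24.5 CPM in HSC and 84.3 and 86.0 CPM in MPP1, where HSC control 1 lay above both MPP1 libraries. Its edgeR adjusted p was 0.202.

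**Figure D3:**
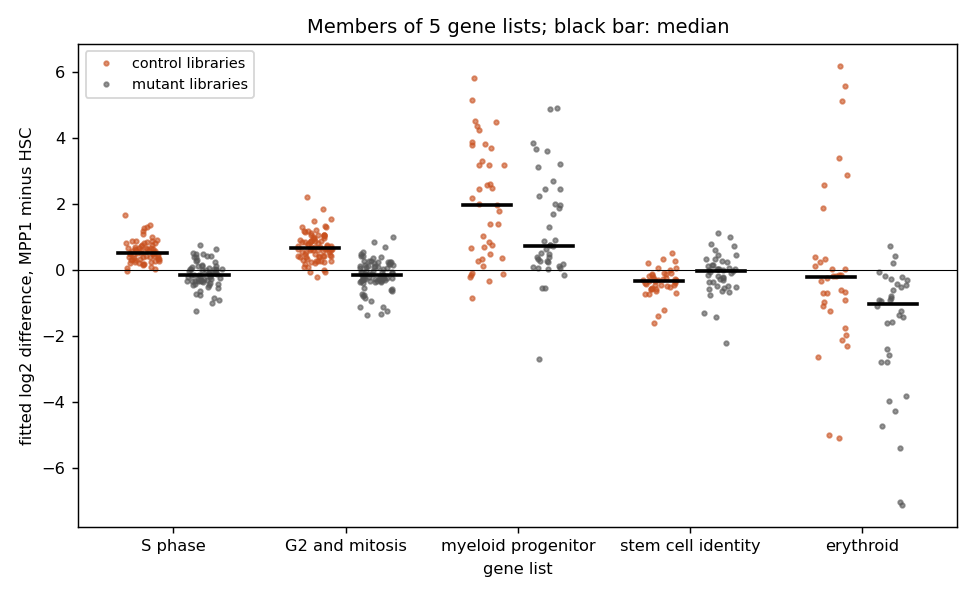
Fitted log2 difference, MPP1 minus HSC, of each tested member of 5 gene lists, in control libraries (orange) and mutant libraries (grey), with the median as a black bar. The medians of S phase and of G2 and mitosis are 0.53 and 0.67 in controls and -0.14 and -0.13 in mutants, while the myeloid list stands at 1.99 and 0.74.

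3 genes passed with a lower level in MPP1. Atp1b2, a beta subunit of the sodium and potassium pump at chr11:69599736-69605942 on the minus strand of GRCm38, stood at 31.6, 11.1 and 21.8 CPM in HSC and at 0 and 0 CPM in MPP1. Against the limit of 3 counts over the MPP1 libraries it was at least 11.8-fold lower, with an edgeR adjusted p of 0.00643. The HSC libraries held 39 counts together. Trib2, a pseudokinase that steers the degradation of C/EBP factors, lies at chr12:15791727-15816922 on the minus strand. It stood at 33.3, 20.3 and 43.6 CPM in HSC and at 1.505 and 5.61 CPM in MPP1, a log2 difference of -3.27 ± 0.71 (SE) with an edgeR adjusted p of 0.0366. The small nucleolar RNA Snora73b stood at 23.3, 44.2 and 98.2 CPM in HSC and at 6.77 and 5.61 CPM in MPP1, with an edgeR adjusted p of 0.0458. In each of the 3 genes the lowest HSC library lay above both MPP1 libraries. Of the 5 leave-one-out fits, Atp1b2 passed in 1, Trib2 in 0 and Snora73b in 2.

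No erythroid gene passed the test. Car1, carbonic anhydrase 1, stood at 179.7, 82.0 and 68.2 CPM in HSC and at 0 and 7.48 CPM in MPP1, which are 222 counts against 4. Its edgeR adjusted p was 0.107. Klf1, the erythroid Krüppel-like factor, stood at 41.6, 10.1 and 38.2 CPM in HSC and at 2.26 and 7.48 CPM in MPP1, a log2 difference of -2.28 ± 0.62 (SE) with an adjusted p of 0.144 by edgeR. Gata1, the factor that directs erythroid and megakaryocyte fate, stood at 58.2, 24.9 and 27.3 CPM in HSC and at 13.5 and 15.0 CPM in MPP1, with an adjusted p of 0.963. None of the 3 overlapped between the groups, and none passed. Slc4a1, the anion exchanger of mature red cells, stood at 1.66, 0 and 0 CPM in HSC and at 0 and 127.1 CPM in MPP1, so that its level rests on MPP1 control 2. Over the list, 13 of 34 tested members were higher and 21 lower, with a median log2 difference of -0.20 and 0 calls. The median was -0.89 without HSC control 3, -0.08 without HSC control 1 and 0.02 with batch as a term in place of the block. 8 did not overlap downwards and 0 upwards, against 8.47% and 9.82% of all genes.

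The stem cell identity list had 36 of 43 tested members lower in MPP1 and 7 higher, with a median log2 difference of -0.31 and 0 calls. 4 had an unadjusted p under 0.05, all lower (1.72% of all genes), and 4 did not overlap downwards (8.47% of all genes). 29 of the 43 were lower within both pairs, against 2787 of 10613 genes. Pdzk1ip1, a membrane adaptor abundant in HSC, stood at 218, 240 and 286 CPM in HSC and at 171 and 151 CPM in MPP1, a log2 difference of -0.68 ± 0.23 (SE) with an edgeR adjusted p of 0.384. Vwf, von Willebrand factor, stood at 11.6, 54.3 and 24.5 CPM in HSC and at 16.6 and 18.7 CPM in MPP1, overlapping. Erg, an ETS factor of stem cell maintenance, stood at 116, 243 and 185 CPM in HSC and at 169 and 125 CPM in MPP1, overlapping too. Procr, the endothelial protein C receptor, stood at 94.8, 94.0 and 106 CPM in HSC and at 73.0 and 46.7 CPM in MPP1, without overlap but with an edgeR adjusted p of 1.

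The transcription factors Mecom, Hlf, Meis1, Mllt3 and Gata2 had fitted log2 differences of -0.41, -0.27, -0.23, -0.43 and -0.54, and the endothelial adhesion gene Esam -0.32. Their edgeR adjusted p-values were 0.941 to 1. Without HSC control 2, 25 of 41 members of the list were lower, with a median of -0.14. The summed level of the list was 7047, 10382 and 9175 CPM in HSC and 9436 and 6408 CPM in MPP1, so the sums overlapped.

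0 of the 21 tested genes for surface proteins of the usual stem and progenitor gates passed the test. Kit, the stem cell factor receptor, stood at 592, 641 and 455 CPM in HSC and 704 and 413 CPM in MPP1, a log2 difference of 0.01 ± 0.20 (SE). Cd34, a sialomucin that separates HSC from their progeny, stood at 251, 158 and 275 CPM in HSC and 276 and 336 CPM in MPP1, so both MPP1 libraries were above all HSC libraries, with a log2 difference of 0.45 ± 0.28 (SE) and an edgeR adjusted p of 0.993. Ly6a, the Sca-1 antigen, stood at 73.2, 46.1 and 40.9 CPM in HSC and 76.0 and 57.9 CPM in MPP1. Cd48, a ligand absent from HSC gates, stood at 26.6, 19.3 and 8.18 CPM in HSC and 38.4 and 11.2 CPM in MPP1. Eng, endoglin, stood at 88.2, 76.5 and 98.2 CPM in HSC and 50.4 and 63.5 CPM in MPP1, without overlap and with an edgeR adjusted p of 0.935. Slamf1 and Flt3 had log2 differences of -0.33 ± 0.43 and 0.51 ± 0.42 (SE). 14 of the 21 were higher, with a median of 0.10, but 10 were higher with a median of -0.02 without MPP1 control 1.

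Lymphoid priming genes had a median log2 difference of -0.13, with 10 of 31 tested members higher, 20 lower and Cd53 as the 1 call. Without HSC control 1 the list had 15 higher and 15 lower with a median of 0.00, and without HSC control 1 and MPP1 control 2 together it had 21 higher and 10 lower with a median of 0.10. Ltb, lymphotoxin beta, stood at 188, 97.6 and 204 CPM in HSC and at 85.8 and 78.5 CPM in MPP1, a log2 difference of -0.84 ± 0.27 (SE) with an edgeR adjusted p of 0.346. Gimap1, a GTPase of lymphocyte survival, stood at 190, 105 and 169 CPM in HSC and at 85.03 and 87.8 CPM in MPP1, with an edgeR adjusted p of 0.642. Both genes stood lower in each MPP1 library than in any HSC library. In the megakaryocyte and platelet list 9 of 21 tested members were higher, with a median of -0.19 and 0 calls, and the median was -0.40 without MPP1 control 2. Fli1, an ETS factor of megakaryocytes, stood at 98.2, 289 and 305 CPM in HSC and 191 and 174 CPM in MPP1, and Gfi1b, a repressor of that lineage, at 48.3, 44.2 and 84.5 against 27.8 and 57.9 CPM. The groups overlapped in both.

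Growth and housekeeping lists held 0 calls. Ribosomal proteins had 29 of 77 tested genes higher with a median log2 difference of -0.08, but -0.49 within pair 1 and 0.16 within pair 2. It was 0.25 without MPP1 control 1 and -0.55 without MPP1 control 2. Ribosome biogenesis had a median of -0.09, the nuclear respiratory chain 0.07, glycolysis and hypoxia 0.05, the interferon response 0.02, MHC class I 0.00 and MHC class II 0.12. DNA methylation machinery had 15 of 19 tested genes higher with a median of 0.16, adhesion and homing -0.01 and apoptosis regulators -0.10. Immediate-early and stress genes had 22 of 31 lower with a median of -0.34, which was -0.60 without MPP1 control 1, -0.11 without MPP1 control 2 and -0.02 without HSC control 1 and MPP1 control 2 together. In the other lists of this group, medians over the fits that left out 1 control library ran from -0.04 to 0.22 for the respiratory chain, -0.06 to 0.32 for the interferon response, -0.03 to 0.04 for MHC class I, -0.26 to 0.67 for MHC class II and -0.11 to 0.05 for adhesion and homing, so their directions turned. Gapdh and Pkm, of glycolysis, had edgeR adjusted p-values of 0.196 and 0.572. Rpl15 and Rps21, ribosomal proteins, had 0.194 and 0.449, and the stress genes Ier5 and Dusp1 had 0.675 and 0.844. Hells, a remodeller needed for DNA methylation, stood at 31.6, 52.5 and 101 CPM in HSC and 100.3 and 136 CPM in MPP1, with an adjusted p of 0.399 by edgeR. The mitochondrial transcript list had 15 of its 30 genes tested and a median of 0.28. That median was -0.06 without the block, with 5 higher and 10 lower, and 0.11 without HSC control 2.

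The lists of other mature cells not yet given were small or sparse. Medians were 2.08 for 8 tested monocyte and macrophage genes, 0.37 for 5 T cell genes, -0.997 for 10 B cell genes, -1.03 for 5 plasma cell genes and 0.08 for 3 natural killer and innate lymphoid genes. They were -0.42 for 10 dendritic cell genes, 0.05 for 3 genes of mast cells, basophils and eosinophils, and -0.32 for 4 endothelial and stromal genes. 0 of these genes passed. The B cell and plasma cell medians turned to 0.06 and 0.91 without HSC control 1, the library with immunoglobulin transcripts. Without it the monocyte and macrophage median was 4.24, and the T cell median was -0.14 without HSC control 2. The dendritic cell median was -0.02 without HSC control 1 and -1.12 without MPP1 control 1. With 3 genes each, the natural killer and mast cell lists ran from -0.09 to 2.82 and from -0.16 to 1.43 over the same fits. Lyz2, the lysozyme gene held by both the neutrophil and the monocyte list, stood at 113, 166 and 106 CPM in HSC and 181 and 512 CPM in MPP1, with an edgeR adjusted p of 0.902.

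The mutant libraries gave the same comparison in samples that the control contrast did not average, within the same model. 5 of 10613 genes passed there (0.0471%), 4 higher in MPP1 (0.0377%) and 1 lower (0.00942%). These were Hk3, mt-Ti, Prtn3, mt-Nd5 and Gata1, named because the count is small. Prtn3 stood at 375, 65.3 and 68.5 CPM in HSC mutant 1, 2 and 3 and at 253 and 343 CPM in MPP1 mutant 1 and 2. Its log2 difference was 1.88 ± 0.30 (SE), with an unadjusted edgeR p of 5.3e-06, and HSC mutant 1 lay above both MPP1 libraries. Hk3, the hexokinase of myeloid cells, stood at 31.8, 12.2 and 5.01 CPM in HSC and 46.2 and 63.5 CPM in MPP1, a log2 difference of 2.68 ± 0.39 (SE) with an edgeR adjusted p of 0.000787. In controls Hk3 had a log2 difference of 1.10 ± 0.38 (SE) and an adjusted p of 0.460. Gata1 stood at 238, 74.0 and 28.4 CPM in HSC and at 5.43 and 2.12 CPM in MPP1, a log2 difference of -3.80 ± 0.75 (SE) with an edgeR adjusted p of 0.0457. In the same libraries as Gata1, HSC mutant 1 had an erythroid list sum of 18977 CPM against 2200 to 2878 CPM in the other 4, and its part in the difference was not tested. mt-Ti and mt-Nd5 are mitochondrial transcripts. mt-Ti stood at 391, 7.37 and 8.18 CPM in HSC control and 33.1 and 61.7 CPM in MPP1 control, where the batch A library was the highest, and both genes had control differences that changed sign without the block.

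17 of the 25 control genes had the same sign in mutants, 14 of the 22 higher and 3 of the 3 lower ones. 11 of the 25 also had an unadjusted edgeR p under 0.05 in that direction, against 3.52% of all genes higher and 3.87% lower, and 1 (Prtn3) passed again. 8 of the 22 higher genes had the opposite sign in mutants. Among the genes of myeloid and other immune cells, Ms4a3 had 3.12 ± 0.72, Atp8b4 2.55 ± 0.58, Cd53 1.73 ± 0.37, Tyrobp 1.33 ± 0.64 and Serpinb1a 0.91 ± 0.30 on the log2 scale (SE). Ncf1 had 0.62 ± 0.48 and Fpr2 1.03 ± 1.37 (SE), and Mmp9 and Ly6g had -0.88 and -0.87 with no usable SE. 10 of the 18 tested neutrophil genes were higher in mutants, with a median of 0.13. Atp1b2 had 186, 30.5 and 5.01 CPM in HSC mutant and 0 and 0 CPM in MPP1 mutant. Trib2 had 79.1, 18.3 and 10.02 CPM against 5.43 and 2.12 CPM, and Car1 had 1579, 77.5 and 46.8 CPM against 0 and 4.23 CPM. All 4 MPP1 libraries lay below all 6 HSC libraries of both genotypes in 0.857% of all genes. They did so in 2 of the 3 called lower genes (Atp1b2 and Trib2, not Snora73b) and in 5 of the 34 tested erythroid genes, among them Car1, Klf1 and Gata1. The 3 called genes were picked by a test on the control libraries among these. Their count is thus fixed in part and is not separate evidence. Klf1 stood at 231, 17.4 and 15.0 CPM in HSC mutant and 0 and 4.23 CPM in MPP1 mutant. In Atp1b2, Trib2, Car1 and Klf1 the highest mutant value was that of HSC mutant 1, the library with an erythroid list sum of 18977 CPM. Its part in these differences was not tested.

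**Figure D4:**
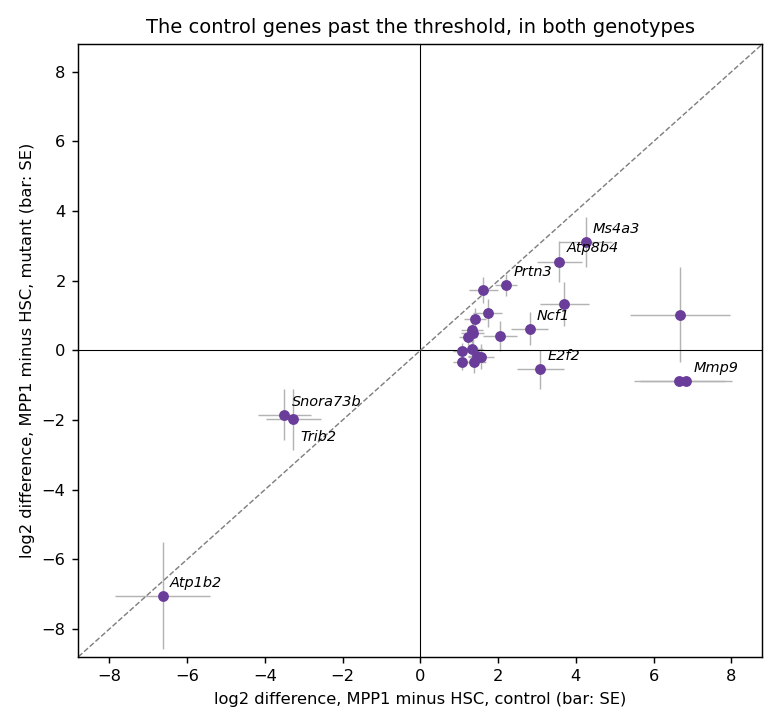
Fitted log2 difference, MPP1 minus HSC, of the 25 control genes past the threshold, in control (x axis) and mutant libraries (y axis), with SE bars; the dashed line marks equal values, and Mmp9 and Ly6g have no usable SE in mutants. Prtn3 lies near the line, Ms4a3 and Atp8b4 lie below it, and E2f2 lies below 0 on the y axis. Atp1b2 had no count in any MPP1 library of either genotype, so its place near the line does not measure a size.

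Genes of division had smaller or opposite fitted differences in mutants. Cdk1 had a mutant log2 difference of -0.33 ± 0.24 (SE), Tk1 -0.34 ± 0.32, Ube2c -0.03 ± 0.25 and Ckap2 0.04 ± 0.31, against 1.07 to 1.37 in controls. Nusap1 and Cep55 had 0.50 ± 0.30 and 0.40 ± 0.43 (SE). Cdk1 stood at 130, 137 and 98.6 CPM in HSC mutant and at 81.5 and 99.4 CPM in MPP1 mutant. The S phase list had 26 of 66 and G2 and mitosis 30 of 82 members higher in mutants. By the interaction term, 0 of 10613 genes differed between the genotypes by edgeR, with 505 (4.76%) at an unadjusted p under 0.05 and 0 by DESeq2. The smallest unadjusted p-values belonged to Gm38197, 2810417H13Rik and E2f2, and the first 2 had an edgeR adjusted p of 0.249. 2810417H13Rik had a log2 difference of 1.46 in controls and -0.16 in mutants. Gm38197, a gene without a described role, stood at 74.9, 71.8 and 109 CPM in HSC control and 44.4 and 56.1 CPM in MPP1 control, and at 10.01, 69.6 and 78.5 against 120 and 163 CPM in mutants.

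**Figure D5:**
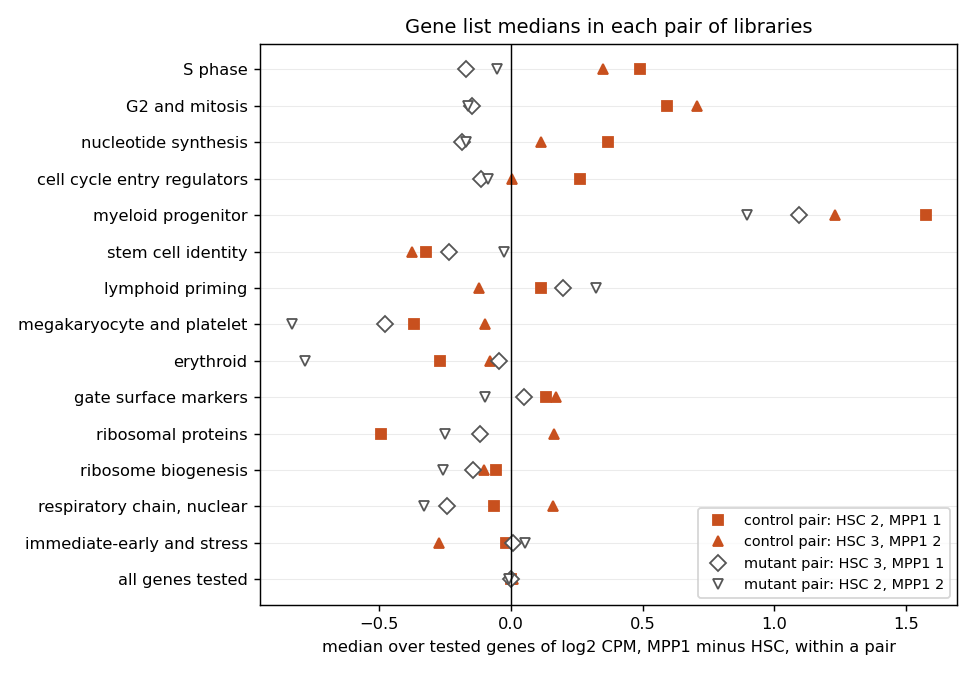
Median over the tested genes of each list of log2 CPM in MPP1 minus HSC, within each pair of libraries with a shared ID number: 2 control pairs (orange) and 2 mutant pairs (grey, open). S phase stands at 0.49 and 0.35 in controls and at -0.17 and -0.05 in mutants, the myeloid list is above 0 in all 4 pairs, and all genes tested stand at 0.00 to 0.01 in size.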

How the data were processed

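The deposited count tables of HSC, MPP1 and MPP4 were joined by gene name over 29717 genes and 18 libraries. The values are whole numbers that the authors' pipeline estimated as molecule counts: 100% of the 1557 values from 1000 to the ceiling of 36909 lie on the grid that a collision correction for 4096 possible molecular tags would give, and they were used as deposited estimated counts, with no rounding. The correction was inferred from the values. Per the submitters' processing notes, the build was mm10 and R 3.4.0 and DESeq2 were used. The sources used here do not give the aligner, counter and annotation. The deposited tables of mutant against control were not used, since they hold no contrast between populations.

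edgeR 4.0.16 in R 4.3.3 was run with TMM scaling, filterByExpr with a minimum count of 10 over 6 groups, a robust quasi-likelihood fit of the 18 libraries, in which the ID number was a block, and Benjamini-Hochberg adjustment over 10613 genes at 0.05. The standard error (SE) is the log2 difference divided by the square root of F. Exact permutation of 2 against 3 libraries cannot give a two-sided p under 0.20, so no such test was used. On simulated counts of 10234 genes for this comparison, 37% of 100 genes changed 2-fold and 85% of 100 changed 4-fold were recovered, with 7 false among 129 calls. The simulated libraries held no effect of ID number, batch or other cells, and only genes of higher mean count were changed. These rates therefore do not carry over to the real calls. Intervals (95%, exact) and the limit of 3 counts cover counting error only.

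The comparison, its gene lists and the named genes were chosen with earlier results of these data known. Named were fixed marker genes, all genes past the threshold (up to 25 higher and 10 lower), up to 3 members of smallest p in each list, up to 3 members of highest CPM in lists of other mature cells, and 3 genes of smallest p in the test between genotypes; exceptions are marked as chosen after their values were seen, as are Pcna and Hba-a1. Coordinates are from GENCODE M21 (GRCm38) and promoters from RefSeq (GRCm38.p6); 7 of the 9 called members of the S phase, mitosis and myeloid lists matched 1 promoter entry. Alternatives were the block, batch, scaling, filter, DESeq2 1.42.0, subsets of libraries and leaving out each control library.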

Additional observations from a re-analysis of the deposited data

Results flagged for a closer look

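The median log2 difference between MPP1 and HSC of 6 gene lists lay on one side of 0 in both control pairs of libraries and on the other side in both mutant pairs. The lists were picked for this pattern, so their differences between genotypes describe it and are not separate evidence. The mean over control pairs minus the mean over mutant pairs was 0.53 for S phase, 0.80 for G2 and mitosis, 0.42 for nucleotide synthesis and 0.23 for regulators of cell cycle entry. It was -0.18 for immediate-early and stress genes and -0.40 for the 4 tested endothelial and stromal genes. The G2 and mitosis medians were 0.59 and 0.71 in the control pairs and -0.15 and -0.16 in the mutant pairs. Some other medians lay close to 0. Those of cell cycle entry were 0.26 and 0.0058 in the control pairs and -0.11 and -0.087 in the mutant pairs. Those of immediate-early and stress genes were -0.018 and -0.27 in the control pairs and 0.0091 and 0.055 in the mutant pairs. The difference between genotypes was not tested at the level of lists, and gene by gene 0 of 10613 passed by edgeR. HSC mutant 1, which stands outside both mutant pairs, had an erythroid list sum of 18977 CPM and a neutrophil list sum of 2277 CPM, and MPP1 control 2, inside control pair 2, had 34247 and 9230 CPM.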

How the results depend on the processing

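The labels do not say what an ID number marks. Deviations from group means correlated at 0.24 and 0.08 for control pairs 1 and 2 and at 0.21 and 0.07 for the pairs that hold MPP1 mutant 1 and 2, not over 0.1 in every pair, so the pairing is a hint only. MPP1 control 2 correlated more with HSC control 1, at 0.11, than with its own number, and both of these libraries held transcripts of other cells. With 2 MPP1 libraries in a group, their deviations mirror each other, so each HSC library's correlations with them are equal and opposite. The values are not separate and cannot decide whether the number pairs libraries. With no replicate block, 0 genes were called in controls (0 higher, 0 lower) and 0 in mutants, against 25 and 5 with it. With batch as a term in its place there were 3 in controls (3 higher, 0 lower) and 0 in mutants. The cause was not tested.

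In controls, the other settings moved the 25 calls (22 higher, 3 lower) as follows. No filter gave 71 (62 and 9), DESeq2 7 (6 and 1), and the stricter filter left 1 lower. The 5 control libraries alone gave 77 (59 and 18) with the block and 4 (4 and 0) without it, and the 4 batch C control libraries without the block gave 12 (10 and 2). Leaving out 1 control library gave 7 to 21 calls, 5 to 19 higher and 1 to 5 lower; the counts were 11 without HSC control 2, 7 without HSC control 3 and 8 without MPP1 control 1. Of the 25 genes, 15, 7, 4, 5 and 7 remained without HSC control 1, 2, 3 and MPP1 control 1, 2. Leaving out HSC control 1 and MPP1 control 2 together, added after seeing the data, gave 20 calls (15 and 5), 6 of them among the 25. In mutants no filter gave 29, DESeq2 9 and batch C alone 20. Between genotypes no filter gave 2 and batch C alone 1, against 0.

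Of the named genes' log2 differences, 17 values changed sign, none of a called gene. Over the fits that each left out 1 control library, Mcm2 ranged from -0.10 to 0.55, Slc4a1 from -0.78 to 7.81, Hlf from -0.60 to 0.014, Kit from -0.082 to 0.12, Slamf1 from -0.67 to 0.68 and Cd48 from -0.018 to 0.92. With no block Kit was -0.010, mt-Ti -1.56 and mt-Nd5 -0.041, and in the 5 control libraries without it -0.014, -1.60 and -0.050. Kit was -0.018 with batch as a term, -0.0056 with RLE scaling and -0.027 with the stricter filter. The remaining 1114 kept sign and side of the threshold, 224 lost a call and 47 gained one. List medians moved beyond the spread of the 2 control pairs in 191 of 527 refits. Depth limits mainly HSC control 3, with 354642 counts, where 1 count is 2.73 CPM.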
